A study of Saccharomyces cerevisiae with 16 samples.

Results

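The ALG enzymes build the lipid-linked oligosaccharide of yeast, the sugar tree that is assembled on the membrane lipid dolichol before it is moved onto proteins. The 10 genes described here, ALG1, ALG2, ALG3, ALG5, ALG6, ALG7, ALG8, ALG9, ALG11 and ALG12, were taken by symbol from a table of counts for 6692 genes, and all 10 passed the filter on low counts in both assays. The study asked how the N-terminal domain of eIF4B affects translation in Saccharomyces cerevisiae grown with or without urea. eIF4B is an initiation factor encoded by TIF3 that helps load mRNAs onto the small ribosomal subunit. Urea is a denaturing agent that yeast can also use as a nitrogen source. RNAseq measured mRNA fragments and Riboseq measured the mRNA fragments protected by ribosomes (footprints), from the same extract of each culture. The groups were ∆ntd cells in synthetic dextrose medium (SD) with 3% urea, ∆ntd cells in SD, WT cells in SD with 3% urea and WT cells in SD, with 2 cultures each and 16 libraries in all. The labels name BY4741 as the WT strain and tif3∆ntd as the mutant, and the methods state that every strain was a haploid MATa lacking chromosomal TIF3, in which a single-copy plasmid supplied full-length eIF4B (WT) or eIF4B without its N-terminal domain (∆ntd) together with the HIS3, LEU2, URA3 and MET15 markers.

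N-glycosylation attaches a preformed sugar tree to asparagines of proteins entering the endoplasmic reticulum (ER), and it is needed for the folding and quality control of secreted, membrane and cell wall proteins. The tree is built a sugar at a time: enzymes on the cytosolic face of the ER membrane add N-acetylglucosamine and then mannose from nucleotide sugars, and enzymes facing the lumen add further mannoses and a chain of glucoses from dolichol-linked sugars. Oligosaccharyltransferase then moves the finished tree onto the protein, and the glucoses on it help this enzyme to recognise its substrate.

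All 10 genes were read from single uninterrupted coding exons of the R64 reference genome. ALG7 (chrII:705447-706793), ALG1 (chrII:458872-460221), ALG2 (chrVII:379760-381271) and ALG11 (chrXIV:538173-539819) encode the cytosolic steps. ALG3 (chrII:69751-71127), ALG9 (chrXIV:235996-237663) and ALG12 (chrXIV:678799-680454) encode the lumenal mannosyltransferases. ALG5 (chrXVI:120163-121167) makes the dolichol-linked glucose, and ALG6 (chrXV:329417-331051) and ALG8 (chrXV:451729-453462) add glucose to the tree. The coding lengths ran between 1005 nt for ALG5 and 1734 nt for ALG8, no coding region overlapped another annotated gene, and none of their 28-nt windows occurred in another gene, so their uniquely mapped reads were not shared with near-identical copies.

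The sequence around the start codon is shown for 5 of them, because eIF4B acts in initiation: ALG6, ALG8 and ALG1 had the lower translation efficiency in ∆ntd cells described below, ALG2 had the highest efficiency in every group, and ALG7 differs at a position before the start codon that is known to affect its recognition. Each is written 5′ to 3′ with 12 bases before the start codon, which is in capitals (R64, coding strand).
ALG6 (chrXV:329405-329425, plus strand): ttcgcatagaaaATGgccatt
ALG8 (chrXV:453454-453474, minus strand): ggatagcctacgATGaaaggt
ALG1 (chrII:458860-458880, plus strand): caattggtgaaaATGtttttg
ALG2 (chrVII:381263-381283, minus strand): agacaagcaaaaATGattgaa
ALG7 (chrII:706785-706805, minus strand): aaagtagactatATGttgcga
The base 3 before the start codon was A in 9 of the 10 genes, against 60.8% of 6004 annotated genes. ALG7 had T there, as did 11.2% of those genes. ALG6, ALG8 and ALG1 all had A at this position, which therefore did not set them apart from the other members.

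Total counts were between 1888481 and 5169546 per RNAseq library and between 3067506 and 17380262 per Riboseq library. The single lowest count of a member was 38 footprints, for ALG5 in ∆ntd urea replicate 2. TIF3 itself cannot check the strain labels here, because a deletion of part of a gene leaves counts on the rest: its RNA was lower by a log2 change of -0.37 in urea and -0.17 without urea in ∆ntd against WT cells. The spread between the Riboseq replicates of ∆ntd cells in urea stood apart, with an SD of the log2 difference over all genes of 0.506, against 0.161 to 0.271 in the other 3 Riboseq groups and 0.213 to 0.269 in RNAseq. Values below are CPM (counts scaled to a common library size) after TMM correction within an assay, translation efficiency (TE) is the footprint CPM divided by the RNA CPM of the same culture, and log2 changes and their p were computed with edgeR (quasi-likelihood F test), a change being called where the adjusted p, corrected over all genes by Benjamini and Hochberg's method, was below 0.05. Every change is therefore relative to the typical gene of that assay, and in bulk cultures less RNA per cell and fewer cells expressing a gene cannot be told apart.

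Per kilobase of coding sequence, RNA abundance differed among the 10 genes. In ∆ntd cells in urea their RNA lay between 29.2 CPM per kb for ALG7 and 84.3 for ALG6, and in WT cells in SD between 44.7 for ALG2 and 86.0 for ALG5. Footprints per kilobase spanned 9.74 for ALG5 to 34.1 for ALG12 in ∆ntd cells in urea, against 21.2 for ALG11 to 43.3 for ALG12 in WT cells in urea. ALG12 thus carried the most footprints per kilobase of the 10 in both strains in urea.

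TE of most of these mRNAs was below that of the typical gene. The median TE of all 5251 genes tested was 0.577 in ∆ntd cells in urea, 0.574 in ∆ntd cells in SD, 0.568 in WT cells in urea and 0.587 in WT cells in SD, and ALG2, which adds a pair of mannoses on the cytosolic face, was the only one of the 10 genes with a group mean above the median, in all 4 groups. The median over the 10 genes was 0.355 and 0.315 in the ∆ntd urea cultures, 0.404 and 0.415 in the ∆ntd SD cultures, 0.483 and 0.448 in the WT urea cultures and 0.416 and 0.452 in the WT SD cultures. In urea both ∆ntd cultures lay below both WT cultures, while in SD the nearest cultures of the strains were too close to order.

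**Figure D1:**
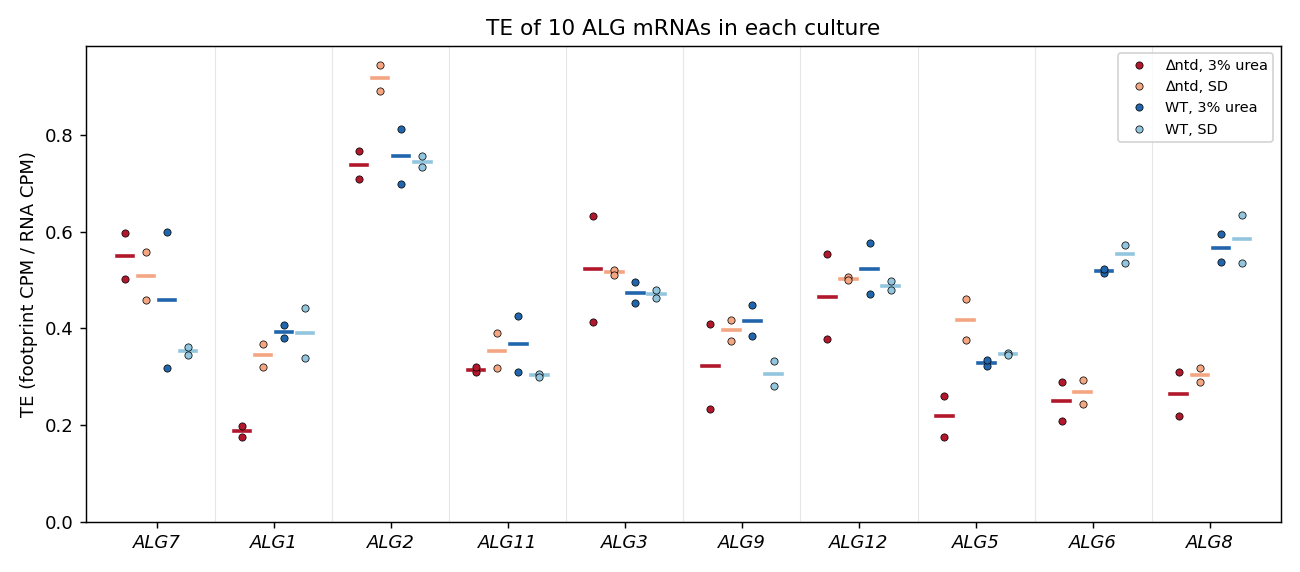
TE (footprint CPM divided by RNA CPM, linear axis) of the 10 mRNAs in order of pathway step, 1 point per culture and a bar at the mean of 2 cultures. ALG6 and ALG8 sit lower in all 4 ∆ntd cultures than in all 4 WT cultures, and ALG1 only in the 2 ∆ntd cultures in urea.

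TE fell in ∆ntd against WT cells for ALG6 and ALG8, which add glucose to the tree, with or without urea. ALG6, which adds the innermost glucose, had a TE of 0.209 and 0.289 in the ∆ntd urea cultures and 0.293 and 0.244 in the ∆ntd SD cultures, against 0.515 and 0.524 in the WT urea cultures and 0.535 and 0.572 in the WT SD cultures. The ∆ntd and WT cultures did not overlap in either medium. In urea the log2 change in TE of ALG6 was -1.08 (SE 0.17, edgeR adjusted p = 0.000419), or 0.472-fold, and without urea it was -1.05 (SE 0.16, edgeR adjusted p = 0.0016), or 0.484-fold. Its RNA and footprints moved apart. ALG6 RNA was 141 and 134 CPM in the ∆ntd urea cultures and 145 and 160 CPM in the ∆ntd SD cultures, against 127 and 128 CPM in the WT urea cultures and 108 and 104 CPM in the WT SD cultures, so ALG6 RNA was higher in each ∆ntd culture than in any WT culture, and the comparison passed without urea (below) but not in urea (0.12, SE 0.09, edgeR adjusted p = 0.306). Footprints of ALG6 were 29.6 and 38.7 CPM in the ∆ntd urea cultures and 42.5 and 39.1 CPM in the ∆ntd SD cultures, against 65.2 and 67.0 CPM in the WT urea cultures and 58.1 and 59.3 CPM in the WT SD cultures.

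ALG8, which adds the glucose after that of ALG6, had nearly the same profile. Its TE was 0.219 and 0.310 in the ∆ntd urea cultures and 0.318 and 0.290 in the ∆ntd SD cultures, against 0.595 and 0.537 in the WT urea cultures and 0.635 and 0.536 in the WT SD cultures. Again the 4 ∆ntd cultures all lay below the 4 WT cultures. The log2 change in TE of ALG8 was -1.13 in urea (SE 0.19, edgeR adjusted p = 0.000924), or 0.458-fold, and -0.94 without urea (SE 0.18, edgeR adjusted p = 0.00742), or 0.521-fold. ALG8 RNA differed less than its footprints: 95.4 and 93.7 CPM in the ∆ntd urea cultures against 110 and 112 CPM in the WT urea cultures, and 115 and 112 CPM in the ∆ntd SD cultures against 93.8 and 107 CPM in the WT SD cultures. Footprints of ALG8 were 20.9 and 29.0 CPM in the ∆ntd urea cultures and 36.6 and 32.4 CPM in the ∆ntd SD cultures, against 65.2 and 60.0 CPM in the WT urea cultures and 59.5 and 57.5 CPM in the WT SD cultures. The test of whether the strain difference depended on urea did not pass for either gene: the difference between the urea responses in TE, ∆ntd minus WT, was -0.04 for ALG6 (SE 0.23, edgeR adjusted p = 0.964) and -0.19 for ALG8 (SE 0.26, edgeR adjusted p = 0.749), and its sign turned when ∆ntd urea replicate 1 was left out (0.18 for ALG6 and 0.05 for ALG8), so a dependence of about the size of these errors was not detectable.

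The calls in urea held for both genes under all 17 alternatives, with log2 changes between -1.33 and -0.86 for ALG6 and between -1.39 and -0.89 for ALG8 when a culture was left out. Without urea the directions held but 6 edgeR adjusted p rose above the threshold: for ALG6 to 0.0971 without ∆ntd SD replicate 2 (log2 change -0.91) and 0.073 without WT SD replicate 2 (-1.0), and for ALG8 to 0.0876 and 0.156 without ∆ntd SD replicate 1 and replicate 2 (-1.0 and -0.87) and to 0.135 and 0.0836 without WT SD replicate 1 and replicate 2 (-0.82 and -1.06).

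ALG1, which adds the first mannose on the cytosolic face, had a lower TE in ∆ntd than WT cells in urea. Its TE was 0.198 and 0.176 in the ∆ntd urea cultures, against 0.406 and 0.379 in the WT urea cultures. In SD the strains overlapped, at 0.368 and 0.320 in the ∆ntd cultures and 0.338 and 0.442 in the WT cultures. The log2 change in TE of ALG1 was -1.06 in urea (SE 0.19, edgeR adjusted p = 0.0012), or 0.481-fold, and -0.17 without urea (SE 0.17, edgeR adjusted p = 0.647). Within ∆ntd cells its TE fell with urea by a log2 change of -0.86 (SE 0.19, edgeR adjusted p = 0.0118), while within WT cells the change was 0.03 (SE 0.18, edgeR adjusted p = 0.974). The test of the difference between those responses gave -0.89 (SE 0.26) with an edgeR adjusted p of 0.12, so the urea responses of ALG1 TE are not shown to differ between the strains. ALG1 RNA was 84.3 and 79.9 CPM in the ∆ntd urea cultures, 68.7 and 68.8 CPM in the ∆ntd SD cultures, 78.2 and 80.0 CPM in the WT urea cultures and 74.7 and 63.0 CPM in the WT SD cultures, with no RNA comparison past the threshold. Its footprints were 16.7 and 14.1 CPM in the ∆ntd urea cultures and 25.3 and 22 CPM in the ∆ntd SD cultures, against 31.8 and 30.3 CPM in the WT urea cultures and 25.2 and 27.9 CPM in the WT SD cultures.

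The ALG1 call between strains in urea held under all 17 alternatives. The urea response of ALG1 TE within ∆ntd cells lost its call without ∆ntd SD replicate 1 (-0.77, edgeR adjusted p = 0.151) or replicate 2 (-0.97, 0.0823), with only the groups compared in the fit (-0.89, 0.108) and with a variance for each group (-0.84, limma adjusted p = 0.19), and the difference between the responses gained one without ∆ntd urea replicate 1 (-1.01, edgeR adjusted p = 0.00829) or replicate 2 (-0.85, 0.0466).

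Across the 10 genes, TE was lower in ∆ntd than WT cells for 3 genes (ALG1, ALG6 and ALG8) and higher for none in urea, where 25.4% of 5251 genes passed the test in either direction and 10.1% passed as lower. The median log2 change was -0.28 for the 10 genes and 0.04 for all genes, and the 7 genes that did not pass lay between -0.50 (ALG5) and 0.25 (ALG7). Without urea 2 genes (ALG6 and ALG8) were lower and none was higher, against 6.49% of genes in either direction and 3.29% as lower. The median was then 0.17 for the 10 genes and -0.01 for all genes, and 7 of the 8 that did not pass had positive values, up to 0.52 for ALG7 (edgeR adjusted p = 0.238) and 0.37 for ALG9 (edgeR adjusted p = 0.39). The 3 of 10 in urea is close to the share of genes called in either direction. In urea 6 genes passed when ∆ntd urea replicate 1 was left out, which added ALG5, ALG9 and ALG12, but 43.6% of all genes passed in that fit. Without urea 4 passed when either ∆ntd urea culture was left out, which added ALG7 and ALG9 as higher, and 23.1% of all genes passed in each of those fits. With library totals as the scale, which moved the median of all genes to -0.55, 8 genes passed as lower in urea, where 44.6% of all genes passed.

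**Figure D2:**
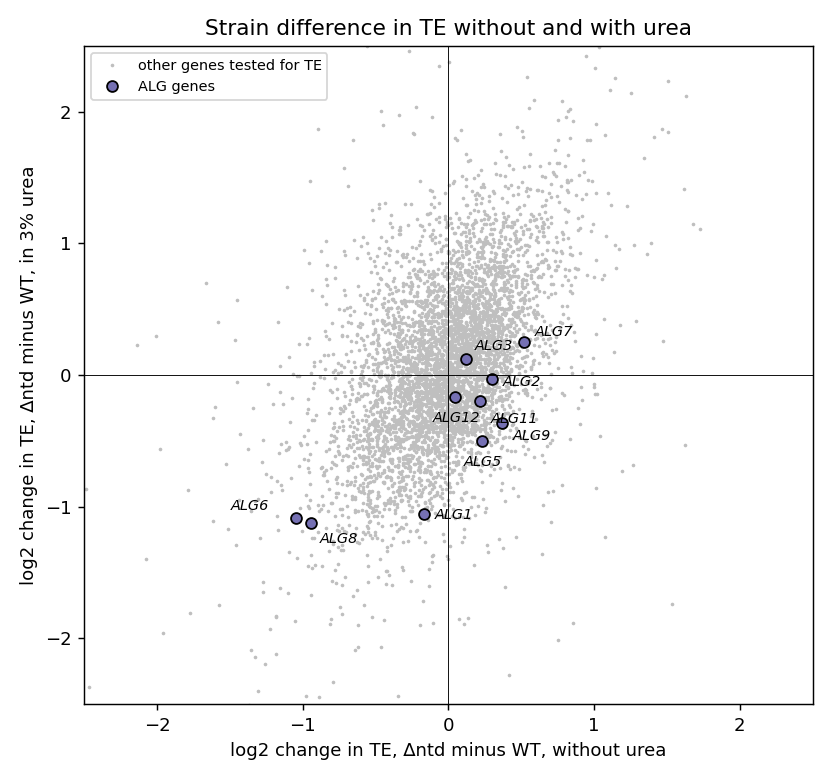
Log2 change in TE, ∆ntd minus WT, without urea (x axis) and in 3% urea (y axis) for each gene tested, with the 10 ALG genes labelled; 31 genes lie outside the plotted range. The axes use different cultures, ALG6 and ALG8 are near -1 on both, and ALG1 is near -1 on the y axis alone.

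The other 7 genes are given in pathway order. ALG7, which starts the tree by moving N-acetylglucosamine phosphate onto dolichol phosphate and is the target of tunicamycin, had a TE of 0.501 and 0.598 in the ∆ntd urea cultures and 0.558 and 0.459 in the ∆ntd SD cultures, against 0.60 and 0.318 in the WT urea cultures and 0.362 and 0.344 in the WT SD cultures. The 2 WT urea cultures lay on either side of the ∆ntd ones, so no direction could be read in urea. ALG2 TE was 0.766 and 0.710 in the ∆ntd urea cultures and 0.890 and 0.946 in the ∆ntd SD cultures, against 0.813 and 0.699 in the WT urea cultures and 0.756 and 0.733 in the WT SD cultures. ALG11, which adds the last mannoses on the cytosolic face, had a TE of 0.309 and 0.320 in the ∆ntd urea cultures and 0.390 and 0.318 in the ∆ntd SD cultures, against 0.309 and 0.426 in the WT urea cultures and 0.306 and 0.30 in the WT SD cultures. Neither gene passed the TE test in any comparison.

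Of the lumenal mannosyltransferases, ALG3, which acts as the first of them, had a TE of 0.413 and 0.632 in the ∆ntd urea cultures and 0.521 and 0.510 in the ∆ntd SD cultures, against 0.453 and 0.495 in the WT urea cultures and 0.480 and 0.462 in the WT SD cultures. ALG9, which acts on both sides of the ALG12 step, had a TE of 0.409 and 0.233 in the ∆ntd urea cultures and 0.418 and 0.374 in the ∆ntd SD cultures, against 0.448 and 0.383 in the WT urea cultures and 0.280 and 0.332 in the WT SD cultures. ALG12, which adds the mannose between the ALG9 steps, had a TE of 0.553 and 0.377 in the ∆ntd urea cultures and 0.507 and 0.499 in the ∆ntd SD cultures, against 0.576 and 0.471 in the WT urea cultures and 0.479 and 0.498 in the WT SD cultures. For all 3, the ∆ntd urea cultures differed from each other by more than the strain means in urea did.

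ALG5, which supplies ALG6 and ALG8 with dolichol-linked glucose, had a TE of 0.261 and 0.176 in the ∆ntd urea cultures and 0.376 and 0.460 in the ∆ntd SD cultures, against 0.323 and 0.334 in the WT urea cultures and 0.350 and 0.344 in the WT SD cultures. The ∆ntd cultures in urea were the lowest of all 8 and those in SD the highest. Within ∆ntd cells the log2 change of ALG5 TE with urea was -0.81 (SE 0.29, edgeR adjusted p = 0.0841), which passed only when the RNAseq and Riboseq libraries of a culture were paired as a block (-0.88, edgeR adjusted p = 0.0353), when ∆ntd urea replicate 1 was left out (-1.20, 0.00267) and with library totals as the scale (-1.15, 0.0286).

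RNA of several members was lower in ∆ntd cells. In urea 5 of 10 were lower and none was higher, against 43.9% of 5486 genes in either direction and 22.5% as lower. ALG5 RNA was 48.5 and 39.4 CPM in the ∆ntd urea cultures, against 81.9 and 82.0 CPM in the WT urea cultures, a log2 change of -0.89 (SE 0.14, edgeR adjusted p = 4.09e-06). ALG7 RNA was 37.8 and 40.9 CPM in the ∆ntd urea cultures, against 66.1 and 76.8 CPM in the WT urea cultures, a log2 change of -0.88 (SE 0.14, edgeR adjusted p = 3.08e-06). The groups did not overlap for either gene, and both calls held under all 16 alternatives. ALG2 (-0.37), ALG3 (-0.37) and ALG11 (-0.39) changed less, with edgeR adjusted p of 0.0171, 0.0259 and 0.00547, and with library totals as the scale, which raised the median of all genes by 0.35, they were at -0.05, -0.04 and -0.07 and did not pass. On that scale ALG1 (0.38) and ALG6 (0.44) passed as higher, or 0.03 and 0.09 relative to that median, where 59.8% of all genes passed. ALG2 lost its call without ∆ntd urea replicate 1 (-0.29, edgeR adjusted p = 0.176) or WT urea replicate 2 (-0.28, 0.183) and by DESeq2 (-0.38, adjusted p = 0.105), ALG3 without ∆ntd urea replicate 1 (-0.40, 0.0751), ∆ntd urea replicate 2 (-0.31, 0.136) or WT urea replicate 2 (-0.31, 0.164) and by DESeq2 (-0.38, adjusted p = 0.121), and ALG11 without ∆ntd urea replicate 2 (-0.32, 0.0625) or WT urea replicate 1 (-0.32, 0.0549).

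Without urea 3 of 10 genes passed the RNA test, against 36.8% of genes in either direction. ALG6 RNA was higher, with a log2 change of 0.52 (SE 0.09, edgeR adjusted p = 2.79e-05), a call that held under all 16 alternatives. ALG7 RNA was 53.2 and 63.3 CPM in the ∆ntd SD cultures, against 81.1 and 79.7 CPM in the WT SD cultures, and was lower by a log2 change of -0.48 (SE 0.12, edgeR adjusted p = 0.00257). ALG11 RNA was lower, with a log2 change of -0.27 (SE 0.11, edgeR adjusted p = 0.049) and at 0.01 with library totals as the scale, which raised the median of all genes by 0.31, so relative to that median it stayed at -0.29. On that scale ALG6 (0.80), ALG8 (0.46), ALG12 (0.46) and ALG9 (0.33) passed as higher, where 54.3% of all genes passed. Relative to that median they were at 0.49, 0.16, 0.15 and 0.02. The ALG7 call was lost with library totals (-0.19, edgeR adjusted p = 0.194) and without ∆ntd SD replicate 1 (-0.35, edgeR adjusted p = 0.0903) and the ALG11 call without ∆ntd SD replicate 1 (-0.28, 0.153), ∆ntd SD replicate 2 (-0.28, 0.131) or WT SD replicate 2 (-0.16, 0.382), by DESeq2 (-0.29, adjusted p = 0.177), with at least 10 counts in every library (-0.27, edgeR adjusted p = 0.0519) and with a variance for each group (-0.27, limma adjusted p = 0.0532).

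**Figure D3:**
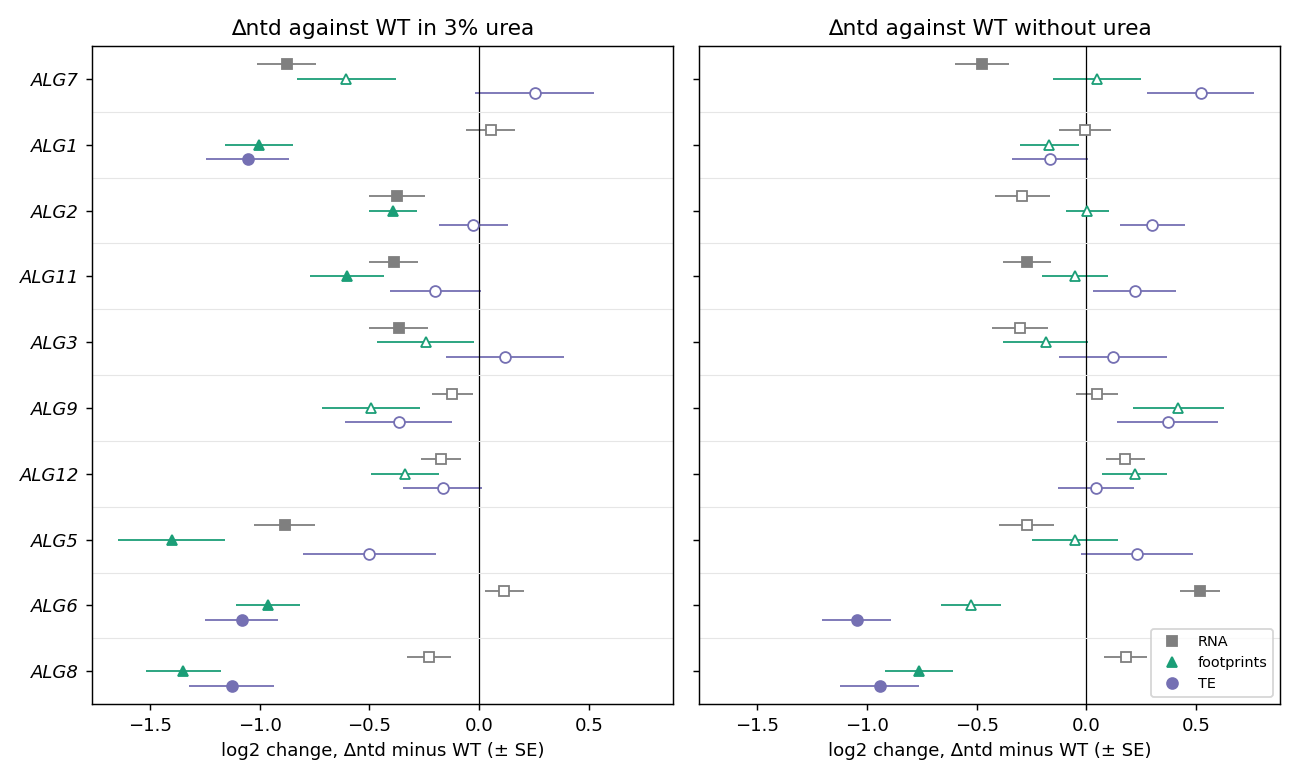
Log2 change (± SE), ∆ntd minus WT, in RNA, footprints and TE for each of the 10 genes in pathway order, in 3% urea (left) and without urea (right), with filled symbols for edgeR adjusted p below 0.05. In ALG6 and ALG8 the TE and footprint changes are negative in both panels, whereas ALG5 in urea has negative RNA and footprint changes that pass and ALG7 a negative RNA change that passes.

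Footprints of all 10 genes had negative log2 changes in ∆ntd against WT cells in urea, and 6 passed as lower, against 32.9% of 5286 genes in either direction and 15.1% as lower. The median was -0.60 for the 10 genes and 0.02 for all genes. ALG5 footprints were 12.6 and 6.93 CPM in the ∆ntd urea cultures, against 26.4 and 27.4 CPM in the WT urea cultures, a log2 change of -1.40 (SE 0.24, edgeR adjusted p = 0.00419). ALG8 (-1.35, SE 0.17), ALG1 (-1.0, SE 0.16) and ALG6 (-0.96, SE 0.15) followed, with edgeR adjusted p of 0.00106, 0.00245 and 0.0023. These 4 calls held under all 16 alternatives. ALG11 (-0.60, SE 0.17, edgeR adjusted p = 0.0288) and ALG2 (-0.39, SE 0.11, 0.0269) were lower as well, while ALG7 (-0.60, SE 0.23, 0.0736) and the others did not pass. ALG2 lost its call when any single SD or WT urea culture was left out, to edgeR adjusted p between 0.0612 and 0.14, and ALG11 without WT urea replicate 1 (-0.75, 0.0568), WT urea replicate 2 (-0.46, 0.151) or WT SD replicate 2 (-0.60, 0.0501), and both with only the groups compared or a variance for each group.

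Without urea 1 of 10 genes, ALG8, had lower footprints (-0.76, SE 0.15, edgeR adjusted p = 0.0224), against 9.21% of genes in either direction and 5.54% as lower. ALG6 (-0.53, SE 0.14) lay at the threshold, with an edgeR adjusted p of 0.0506. The ALG8 call was lost when any WT culture or either ∆ntd SD culture was left out (log2 change -0.85 to -0.68, edgeR adjusted p 0.0625 to 0.23). When either ∆ntd urea culture was left out 4 genes passed, with ALG6 and ALG8 lower and ALG9 and ALG12 higher, but 38.6% and 38.5% of all genes passed in those fits.

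In urea, footprints and RNA of ALG5 were both called lower and its TE did not pass, whereas for ALG1, ALG6 and ALG8 the footprints were called lower and the RNA did not pass, narrowly for ALG8 (-0.23, SE 0.10, edgeR adjusted p = 0.0647). ALG7 RNA was lower in both media. ALG7 footprints in urea passed without ∆ntd urea replicate 1 (-0.45, edgeR adjusted p = 0.0495), ∆ntd urea replicate 2 (-0.82, 0.000498) or WT urea replicate 2 (-0.89, 0.0288) and with library totals (-0.88, 0.0173).

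**Figure D4:**
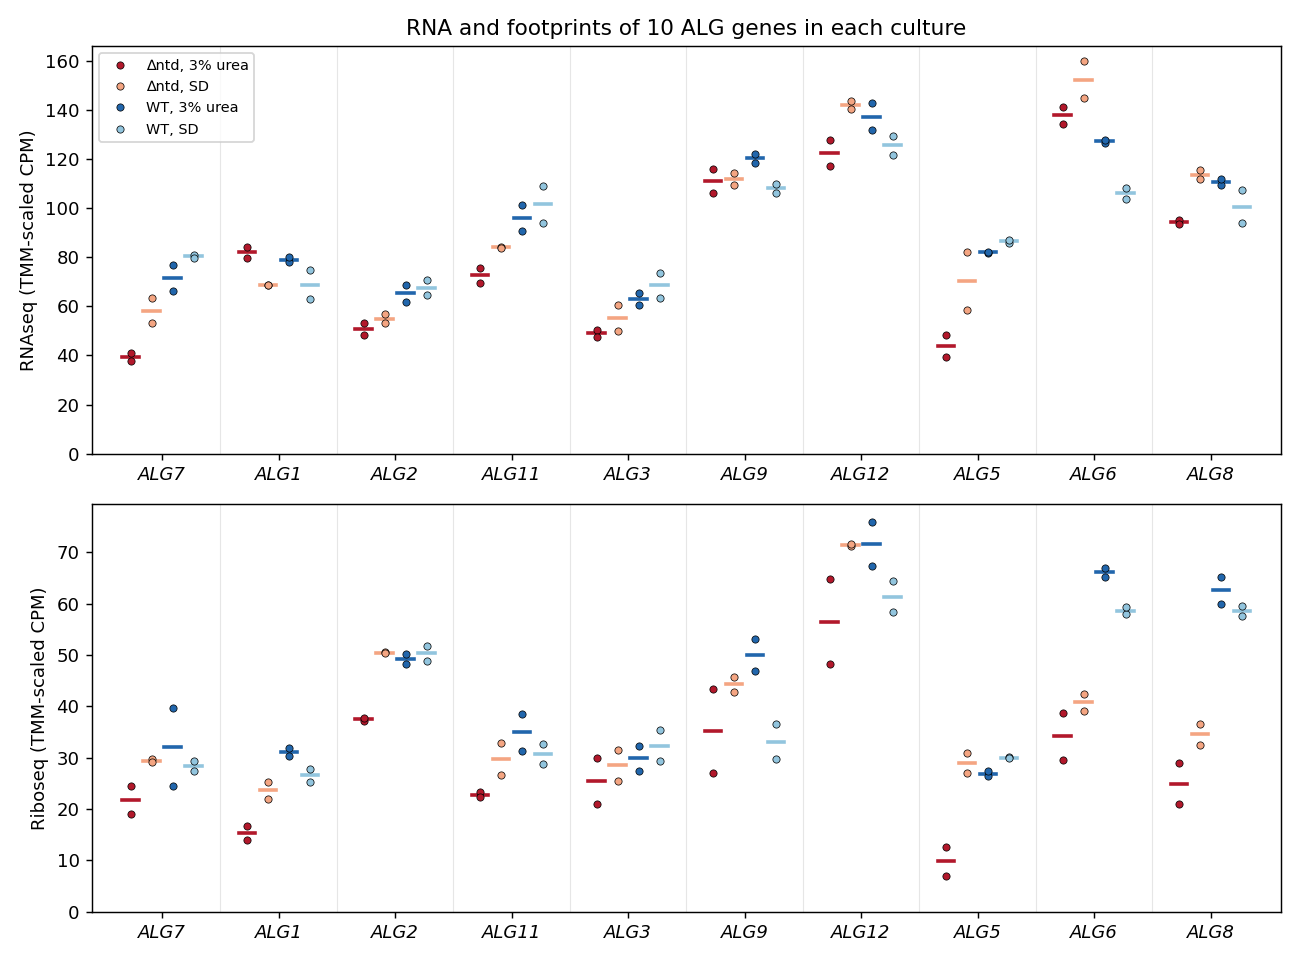
RNAseq (top) and Riboseq (bottom) TMM-scaled CPM of the 10 genes in pathway order, linear axes from 0, 1 point per culture and a bar at the mean of 2 cultures. ALG6 RNA is highest in ∆ntd cells while its footprints are highest in WT cells, and ALG5 and ALG7 RNA are lowest in ∆ntd cells in urea.

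Urea changed few of these genes in WT cells. In TE, 0 of 10 passed (edgeR; 0 also at an unadjusted p below 0.05, and 0 by DESeq2), against 0.133% of genes, and ALG9 had the largest value (0.45, SE 0.24, edgeR adjusted p = 0.544). In footprints 0 of 10 passed (edgeR; 1, ALG9, at an unadjusted p below 0.05, and 0 by DESeq2), against 9.21% of genes. ALG9 footprints were 53.1 and 46.8 CPM in the WT urea cultures, against 29.7 and 36.5 CPM in the WT SD cultures, groups that did not overlap, with a log2 change of 0.60 (SE 0.22, edgeR adjusted p = 0.138). ALG9 and ALG12 footprints passed as higher when ∆ntd urea replicate 1 or replicate 2 was left out (ALG9 0.62 in both fits), and so did ALG9 TE (0.47 in both fits), while 31% and 30.9% of all genes passed in footprints and 5.84% and 5.86% in TE. In RNA 1 of 10 passed, against 28.5% of genes in either direction and 16.1% as higher: ALG6 RNA rose by a log2 change of 0.26 (SE 0.09, edgeR adjusted p = 0.0229), and lost its call when any 1 of the 4 WT cultures was left out (0.23 to 0.30, edgeR adjusted p 0.0659 to 0.157), by DESeq2 (0.27, 0.145) and with library totals as the scale (0.15, 0.235).

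In ∆ntd cells urea lowered the footprints of 3 of 10 genes, against 28.4% of genes in either direction and 11.5% as lower, and all 10 values were negative. ALG5 footprints were 12.6 and 6.93 CPM in the ∆ntd urea cultures, against 30.9 and 27.0 CPM in the ∆ntd SD cultures, a log2 change of -1.51 (SE 0.23, edgeR adjusted p = 0.00409). ALG1 (-0.60, SE 0.15) and ALG2 (-0.43, SE 0.10) were lower with edgeR adjusted p of 0.0201 each. In RNA 2 of 10 fell, against 26.2% of genes in either direction and 12.8% as lower: ALG5 by a log2 change of -0.69 (SE 0.15, edgeR adjusted p = 0.000674) and ALG7 by -0.56 (SE 0.15, edgeR adjusted p = 0.00517). In TE 1 of 10 passed, the ALG1 change above, against 11.6% of genes in either direction and 4.27% as lower, and 2 of 10 (ALG1 and ALG5) with the culture as a block. Footprint calls of ALG1 and ALG2 were lost without ∆ntd SD replicate 1 (edgeR adjusted p = 0.137 and 0.127) or replicate 2 (0.0754 and 0.119) and that of ALG2 also without WT SD replicate 1 or replicate 2 (0.0522 and 0.052), no footprint call passed with only the 2 groups compared in the fit, and the RNA calls were lost for ALG5 without ∆ntd SD replicate 1 (-0.40, 0.117) and for ALG7 without ∆ntd urea replicate 1 (-0.49, 0.0679) or ∆ntd SD replicate 2 (-0.43, 0.0832). With ∆ntd urea replicate 1 or replicate 2 left out, 6 or 7 genes had lower footprints, while 58.1% or 38.8% of all genes passed, and without replicate 1 the TE of 4 genes was lower, while 39.4% of all genes passed.

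The urea responses of the strains were compared directly as a difference, ∆ntd minus WT. In RNA it passed for 2 of 10 genes, ALG5 (-0.61, SE 0.19, edgeR adjusted p = 0.0342) and ALG6 (-0.40, SE 0.13, edgeR adjusted p = 0.0391), against 10.4% of genes in either direction and 6.07% as lower, and in footprints for 2 of 10, ALG5 (-1.35, SE 0.31, edgeR adjusted p = 0.042) and ALG1 (-0.84, SE 0.20, edgeR adjusted p = 0.0466), against 8.36% of genes in either direction and 3.44% as lower. In TE it passed for 0 of 10 (edgeR; 2, ALG1 and ALG9, at an unadjusted p below 0.05, and 0 by DESeq2), against 0.609% of genes, although all 10 values were negative with a median of -0.30, against 0.06 for all genes. All 10 values share the same 8 cultures. The RNA difference of ALG5 kept its call only without ∆ntd urea replicate 1 (-0.76) or ∆ntd SD replicate 2 (-0.80) and that of ALG6 only without ∆ntd SD replicate 1 (-0.46), among the 8 fits that left out a culture. The footprint differences lost their calls when any culture other than a ∆ntd urea one was left out (edgeR adjusted p 0.133 to 0.207), whereas without ∆ntd urea replicate 1 or replicate 2, 6 or 8 genes passed in footprints, with 48.7% or 28.6% of all genes, and 4 or 1 in TE, with 28.6% or 7.35% of all genes. Both footprint calls were also lost with the replicate block across groups (edgeR adjusted p = 0.0779 for ALG1 and 0.0592 for ALG5), and both RNA calls by DESeq2 (adjusted p = 0.211 for ALG5 and 0.248 for ALG6) and with library totals (edgeR adjusted p = 0.0502 and 0.078).

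Other genes of the pathway were grouped by role. Of the 9 genes that make sugar donors, 4 were higher in TE and 0 lower in urea, relative to the typical gene, against 15.3% of all genes as higher. They were GNA1 (1.06, SE 0.29), DPM1 (0.63, SE 0.17), SEC53 (0.58, SE 0.12) and PSA1 (0.47, SE 0.16), with edgeR adjusted p of 0.0167, 0.0145, 0.00406 and 0.0477. GNA1 acetylates glucosamine phosphate, DPM1 makes dolichol-linked mannose, and SEC53 and PSA1 make GDP-mannose. With library totals as the scale the median of all genes moved to -0.55, and SEC53 and PSA1 were at -0.02 and -0.14, or 0.53 and 0.41 relative to that median. The calls in urea were lost for GNA1 without WT urea replicate 2 (0.77, edgeR adjusted p = 0.175), for DPM1 and SEC53 without WT urea replicate 1 (0.45 and 0.55, edgeR adjusted p = 0.183 and 0.0544) and for PSA1 without any culture other than ∆ntd urea replicate 1. PSA1 passed in only 3 of 17 alternatives, and not with the culture as a block (0.46, edgeR adjusted p = 0.0844), with the replicate block across groups (0.0599) or by DESeq2 (adjusted p = 0.0543). RNA of 7 of these 9 genes was lower in ∆ntd cells in urea and of 7 without urea, against 22.5% and 19.3% of all genes as lower. Without urea, where 3.2% of all genes passed as higher, the TE of PMI40 (0.61, SE 0.16, edgeR adjusted p = 0.0422), which starts the route to GDP-mannose, and SEC53 (0.51, SE 0.12, edgeR adjusted p = 0.0246) was higher. Both calls without urea were lost when any culture other than a ∆ntd urea one was left out, and that of SEC53 with the culture as a block (0.51, edgeR adjusted p = 0.0502). Not every loss is listed here. Over the 17 alternatives PMI40 and SEC53 passed in 9 each without urea. In urea GNA1 and DPM1 passed in 14 each and SEC53 in 15.

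Of the 6 genes of dolichol synthesis, 5 could be tested for TE and 1, NUS1, a subunit of the enzyme that makes the dolichol chain, was higher in urea (0.80, SE 0.22, edgeR adjusted p = 0.0159), against 15.3% of all genes as higher. Of the 9 oligosaccharyltransferase genes, 1, OST3, a subunit with an oxidoreductase fold, was lower (-0.88, SE 0.22, edgeR adjusted p = 0.00991), against 10.1% of all genes as lower. Of the 4 trimming genes, the glucosidases CWH41 (-0.39, SE 0.13) and ROT2 (-0.40, SE 0.12), which remove glucoses from the transferred tree, were lower and the mannosidase MNS1 (1.18, SE 0.37) was higher, with edgeR adjusted p of 0.0457, 0.0254 and 0.0314, against the same shares of all genes. Single cultures decided several of these calls: NUS1 lost its call without ∆ntd urea replicate 2 or either WT urea culture, OST3 without WT urea replicate 2 (-0.76, edgeR adjusted p = 0.0966), ROT2 without any 1 WT culture, CWH41 without any culture other than ∆ntd urea replicate 2, and MNS1 without any culture other than a ∆ntd urea one. With the culture as a block the calls of CWH41 (-0.39, edgeR adjusted p = 0.0587) and ROT2 (-0.40, 0.0524) were lost. Not every loss is listed here. Over the 17 alternatives NUS1 passed in 11, OST3 in 14, CWH41 in 4, ROT2 in 10 and MNS1 in 9. Without urea none of these lists had a gene past the TE threshold (edgeR; 3 oligosaccharyltransferase genes at an unadjusted p below 0.05), against 6.49% of all genes in either direction.

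The non-member genes whose log2 TE over the 8 cultures was most like the median log2 TE of the 10 members were URB1 (Pearson r = 0.993), NCW2 (0.989) and SKP2 (0.987), among 5217 genes with the 10 members counted in, and each r rests on 8 cultures of 4 groups.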

How the data were processed

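RNAseq and Riboseq libraries of 8 yeast cultures were analysed from 1 deposited table of counts for 6692 genes, of which 6008 matched the R64 annotation. Per the labels and methods, the authors trimmed reads with cutadapt 1.1, removed non-coding RNA and aligned to the SGD transcriptome with Bowtie (versions 1.1 and 0.1.3 are listed), and deposited counts of uniquely aligned reads with no normalization. Columns holding the authors' own DESeq2 fold changes and adjusted p-values were not used. Of the per-sample columns, 0 were left out.

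Counts were tested with edgeR 4.0.16 in R 4.3.3 by the quasi-likelihood F test, with TMM factors and filterByExpr within each assay. The fit held all 4 groups. It covered 5486 genes in RNAseq, 5286 in Riboseq and 5251 in TE, where TE is the Riboseq minus the RNAseq contrast in 1 fit of 16 libraries. Adjusted p is Benjamini-Hochberg over all genes tested, with a threshold of 0.05, and SE is the log2 change over the square root of F. With 2 cultures against 2 a permutation test cannot go below p = 0.333, so none was run. The p-values rest on 1 spread per gene, shared by all 4 groups and in TE by all 16 libraries. That is not the spread of the groups compared, which was wider in ∆ntd urea Riboseq (SD 0.506, against 0.161 to 0.271). With only the groups compared, footprint calls over all genes were 2038 between strains without urea, against 487. With urea in ∆ntd cells they were 115, against 1499. Precision also follows the counts given in the report. The fits were tested on simulated data with the same spread in all groups, so the wider spread of the ∆ntd urea Riboseq replicates was not simulated.

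All 10 members are named. Of the other pathway genes, 1 list is not reported here, the genes of the others are counted and those past the threshold in TE between strains are named, and the 3 genes most like the members in TE are given. Members and lists were chosen with earlier results of these data known. RNAseq and Riboseq libraries of a culture came from 1 extract, which pairs them by design (correlation of their deviations -0.0263 to 0.0285). The sources do not clearly say whether replicate numbers mark a shared day, and they were not treated as pairing cultures across groups. Correlations of deviations between groups were -0.0263 to 0.0413 in RNAseq and -0.358 to 0.0631 in Riboseq, the -0.358 between ∆ntd urea and WT SD. Alternatives were DESeq2 1.42.0 and its size factors, other filters, only the groups compared, limma 3.58.1 with a variance for each group, replicate blocks, each culture left out and, chosen after seeing the data, library totals. Gene positions and start contexts came from RefSeq R64. Figures were drawn with matplotlib 3.10.9.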

Additional observations from a re-analysis of the deposited data

Results flagged for a closer look

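The urea responses of the strains differed by a test of the difference itself, ∆ntd minus WT, in 4 member values, 2 in RNA, where 10.4% of all genes passed, and 2 in footprints, where 8.36% passed. Both RNA calls were lost by DESeq2 (adjusted p = 0.211 for ALG5 and 0.248 for ALG6) and both footprint calls with the replicate block across groups (edgeR adjusted p = 0.0779 for ALG1 and 0.0592 for ALG5). In RNA the difference was -0.61 for ALG5 and -0.40 for ALG6 on the log2 scale (edgeR adjusted p = 0.0342 and 0.0391). In footprints it was -0.84 for ALG1 and -1.35 for ALG5 (edgeR adjusted p = 0.0466 and 0.042). ALG5 RNA changed with urea by -0.69 in ∆ntd cells and by -0.08 in WT cells, and ALG6 RNA by -0.14 in ∆ntd cells and by 0.26 in WT cells. ALG1 footprints changed with urea by -0.60 in ∆ntd cells and by 0.23 in WT cells, and ALG5 footprints by -1.51 in ∆ntd cells and by -0.16 in WT cells. The Riboseq replicates of ∆ntd cells in urea had the widest spread of any group (SD 0.506), and its part in the footprint differences was not tested.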

How the results depend on the processing

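TE of ALG1, ALG6 and ALG8 in urea kept its direction and call under all 17 alternatives. Counts of members past the threshold moved as follows, and the range of calls over all genes is given below for each comparison. By DESeq2, RNA between strains in urea had 3 (5 by edgeR), RNA with urea in WT 0 (1), the RNA difference between responses 0 (2) and footprints between strains without urea 2 (1), which was also 2 without a filter on low counts. By DESeq2, 29.8%, 16.8%, 4.74% and 10.8% of all genes passed in that order, and 7.92% in footprints without that filter. With only the groups compared, footprints had 4 between strains without urea, 0 with urea in ∆ntd (3) and 1 with urea in WT (0), and TE had 4 between strains without urea (2), 0 with urea in ∆ntd (1) and 1 with urea in WT (0). Of all genes, 38.5%, 2.2% and 29.5% passed in those footprint comparisons. With a variance for each group, footprints had 4 between strains without urea, 1 with urea in ∆ntd, 1 with urea in WT and 1 for the difference (2), and TE had 4 between strains without urea and 0 with urea in ∆ntd. In footprints 37.9% of all genes then passed between strains without urea, 13.6% with urea in ∆ntd and 27.7% with urea in WT. With library totals, RNA had 4 with urea in ∆ntd (2), 0 with urea in WT and 0 for the difference, footprints had 2 between strains without urea, 9 with urea in ∆ntd and 4 for the difference, and TE had 8 between strains in urea (3) and 5 with urea in ∆ntd. Of all genes, 27.4%, 31% and 10.3% passed in those RNA comparisons. In footprints 8.32% passed between strains without urea and 45.4% with urea in ∆ntd, and in TE between strains in urea 2341 of 5251 genes passed. Between strains, library totals also gave RNA calls as higher, for ALG1 and ALG6 in urea and for ALG6, ALG8, ALG9 and ALG12 without urea. The replicate block across groups left 0 footprint differences, and the replicate block by culture gave 2 in TE with urea in ∆ntd. The blocks moved no other count of members by over 1.5 times. A count of members given here without a share of all genes is not read as a result about the members. This holds for the footprint difference and for TE, except TE between strains in urea with library totals. The ranges over all genes given below are not tied to those settings. The causes were not tested.

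With a culture left out, counts ranged in RNA from 3 to 5 (strains in urea), 2 to 3 (strains without urea), 1 to 2 (urea in ∆ntd), 0 to 1 (urea in WT) and 0 to 1 (difference). In footprints they ranged from 4 to 9, 0 to 4, 1 to 7, 0 to 2 and 0 to 8 in that order of comparisons, and in TE from 3 to 6, 0 to 4, 0 to 4, 0 to 1 and 0 to 4. Library totals move all genes together, and values whose sign turned there kept it relative to the median of all genes: ALG11 RNA without urea (0.012, relative value -0.29), ALG8 RNA in urea (0.097, relative -0.25), and TE in urea of ALG7 (-0.34, relative 0.21), PSA1 (-0.14, relative 0.41) and SEC53 (-0.021, relative 0.53). With a culture left out, signs turned for ALG7 TE in urea (-0.14 to 0.78), ALG1 TE without urea (-0.36 to 0.025 with a culture left out, positive without WT SD replicate 2), the ALG1 TE change with urea in WT cells (-0.17 to 0.22), and the TE difference of ALG6 (-0.28 to 0.18 with a culture left out, positive without ∆ntd urea replicate 1, ∆ntd SD replicate 1 or WT SD replicate 1) and ALG8 (-0.45 to 0.053, positive without ∆ntd urea replicate 1). Genes past the threshold over all genes moved too: TE between strains had 1333 in urea (570 to 2341) and 341 without (17 to 1227), TE with urea 607 in ∆ntd (11 to 2087) and 7 in WT (0 to 311), and the TE difference 32 (0 to 1514). Footprints had 1741 (701 to 2996), 487 (44 to 2058), 1499 (115 to 3090), 487 (97 to 1650) and 442 (12 to 2589), and RNA 2410 (1635 to 3279), 2018 (1299 to 2981), 1440 (853 to 1533), 1565 (924 to 1717) and 573 (260 to 650), in the same order.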
